A study of Sus scrofa with 26 samples.

Results

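The data described here are the levels of 10 genes of the non-collagen extracellular matrix in the subcutaneous adipose tissue (SCAT, dorsal back fat) of growing pigs: CILP, DCN, LUM, SPARC, FN1, POSTN, FBN1, MMP2, TIMP1 and THBS1. A probe was taken as a member when the array annotation named 1 of these genes by symbol, accession or description, and all its probes were kept. This gave 60 of the 60305 probes of the porcine one-colour array that are not controls, and all 60 were among the 44703 probes tested. Of the 60, 58 were named by the gene symbol and 2, 1 of MMP2 and 1 of THBS1, by the description only. The genes were chosen by their measured difference between heat stress (HS) and thermoneutrality (TN) in these same animals, so HS minus TN is given for them as a description. Where the text says how many of their probes the fit called in that contrast, the count supports nothing, because the same contrast chose the genes. The contrasts between breeds were not used in the choice and were tested.

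The 26 pigs, 1 per array, were castrated males of 3 breeds: Creole, a local breed of the Caribbean, Large White (LW), a commercial lean breed, and the F1 cross of Large White and Creole. All entered a climatic room at 11 weeks of age and had free access to the same diet. TN pigs were slaughtered at 24 °C, before the temperature was raised, with 3 Creole, 4 F1 and 4 LW pigs. HS pigs were slaughtered after up to 5 days of heat, with 5 pigs of each breed; the sample labels give 30 °C for them, whereas the series text gives 32 °C. HS pigs were therefore killed later than TN pigs, and temperature cannot be told apart from slaughter day or from the days of age between them. The study reported that feed intake fell in the heat, so temperature cannot be told apart from lower intake either. The study arranged littermates in blocks and housed pigs in pens, neither of which is in the labels, so every test treats the pigs as independent.

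The matrix that surrounds adipocytes is made mainly by fibroblasts and adipocyte progenitors. Collagen fibrils give it strength, and the non-collagen proteins set fibril width, link fibrils to cells and hold growth factors in reserve. Its turnover is balanced between metalloproteinases such as MMP2 and their inhibitors such as TIMP1, and it is remodelled whenever fat depots expand or shrink. In bulk tissue, more RNA per cell cannot be told apart from more cells of a kind. Between 68.5% and 76.6% of probes were well above background on each array. All 10 adipocyte markers measured, ADIPOQ and FABP4 among them, passed the filter on dim probes.

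One array stood apart on these genes. The pig Creole TN replicate 2 had the lowest level of all 26 on 40 of the 60 member probes, whereas it was lowest on 6.53% of all tested probes. Its score over 13 fibroblast markers, the mean log2 level after centring each gene, was also the lowest of the 26 at -0.61. Since its group holds only 3 pigs, the values without it are given beside the results that it moved most.

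CILP, cartilage intermediate layer protein, is a secreted matrix glycoprotein known from cartilage that binds TGF-beta. It is represented by 4 probes with 3 distinct sequences, because O2757 and A_72_P288139 carry the same 60 bases. The sequences below are shown because they come from different places in the transcript, the array annotation placing their starts at base 868 and base 3474 for the first and the second. Both have 1 of 3 forward frames free of stop codons. For the identical pair, whose start is not annotated, the last 30 bases are shown with AATAAA in capitals, the letters of the usual polyadenylation signal; these 6 letters occurred on the printed strand in 10.3% of all probes.
CILP A_72_P695752: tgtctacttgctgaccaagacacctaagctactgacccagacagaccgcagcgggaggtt
CILP A_72_P444513: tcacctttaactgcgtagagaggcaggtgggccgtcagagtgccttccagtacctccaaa
CILP O2757 and A_72_P288139, bases 31 to 60: tgtcAATAAAtgcacattttatacctgaaa

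On the brightest CILP probe, O2757, the log2 level in the 3 Creole TN pigs was 10.04, 8.68 and 10.35, and in the 5 Creole HS pigs 11.05, 13.36, 9.85, 10.18 and 12.94. In the F1 cross it was 9.998, 10.36, 9.97 and 9.81 at TN and 10.40, 10.69, 10.50, 11.58 and 11.83 at HS. In LW it was 10.15, 9.67, 10.34 and 10.22 at TN and 11.98, 11.51, 10.98, 10.77 and 10.54 at HS. On O2757 F1 and LW levels did not overlap between temperatures. Creole levels did, with 2 HS pigs far above all others of the series and 2 within the range of the TN pigs. All 15 HS pigs lay above the TN mean of their own breed, and 13 lay above every TN pig. The mean was 9.96 ± 0.48 (SD, n = 11) at TN and 11.21 ± 1.00 (SD, n = 15) at HS. On the other CILP probes LW again did not overlap, but F1 did. Even A_72_P288139, with the same bases, had F1 levels up to 10.26 at TN and from 10.20 at HS. On A_72_P444513 the same 2 Creole HS pigs read 10.89 and 11.08, where other HS pigs reached 11.31. The share of all probes without overlap was not counted, so nothing is read from the separation.

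**Figure D1:**
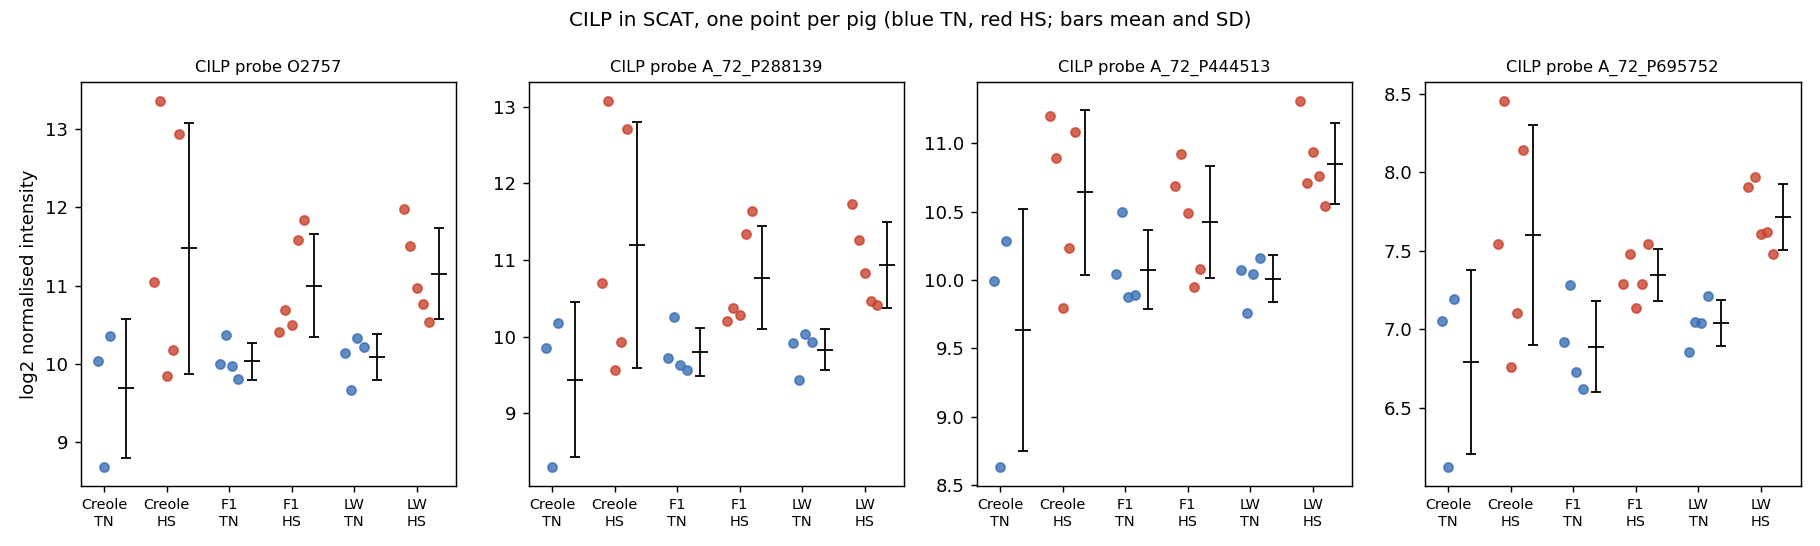
Log2 normalised intensity of the 4 CILP probes (vertical axes, each with its own range) in the 6 breed and temperature groups, 1 point per pig, with the mean and SD of each group as a bar. On O2757 13 of 15 HS pigs lie above all TN pigs, and 2 Creole HS pigs, at 13.36 and 12.94, lie above all other pigs.

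HS minus TN for CILP, adjusted for breed, was 1.24 ± 0.32 (SE) on the log2 scale on O2757, a 2.37-fold higher level. The identical probe A_72_P288139 gave 1.25, and the difference between the 2 identical probes varied from array to array with an SD of only 0.07. The other 2 probes gave 0.72 ± 0.18 (A_72_P444513) and 0.64 ± 0.15 (A_72_P695752), so the estimates ran from 1.56-fold to 2.38-fold over the 4 probes. Within breeds the O2757 difference was 1.79 in Creole, 0.97 in F1 and 1.06 in LW. Without Creole TN replicate 2 it was 1.28 in Creole and 1.08 over all breeds, and the 4 probes gave 0.55 to 1.08. Within the 5 array slides, each of which held pigs of both temperatures, the O2757 difference was positive on all 5 and ran from 0.59 to 2.11. These were plain differences of slide means, not adjusted for breed.

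No CILP probe passed the test between the breeds. LW minus Creole was -0.04 ± 0.39 on O2757 (limma, adjusted p = 0.963) and its 4 probes ranged from -0.04 to 0.26. Its error was the widest among the brightest probes of the 10 genes; the Creole pigs ranged from 8.68 to 13.36 and the LW pigs from 9.67 to 11.98. After subtracting group means, O2757 followed A_72_P695752 over the 26 pigs with r = 0.90 and A_72_P444513 with r = 0.53, so the probes of 1 gene ranked the pigs of a group in different orders.

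Among the other members, the small leucine-rich proteoglycans decorin (DCN) and lumican (LUM), which bind collagen fibrils and limit their width, were measured with 7 and 11 probes. Their genes are neighbours in the RefSeq annotation of assembly Sscrofa11.1. For each, 1 probe from within the transcript is shown to identify what was measured.
DCN A_72_P280399: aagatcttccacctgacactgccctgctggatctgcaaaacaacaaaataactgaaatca
LUM A_72_P560404: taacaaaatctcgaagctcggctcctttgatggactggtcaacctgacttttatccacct

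Over all 60 probes, HS minus TN had a median of 0.20 on the log2 scale, against 0.0024 over all tested probes, and 50 of the 60 were above 0. The fit over all probes called 15 members, every one higher at HS, where it called 12.2% of all tested probes, 5.17% as higher and 7.02% as lower; since this contrast chose the genes, nothing is read from that count. The 15 were the 4 CILP probes, 5 of 7 for DCN, 3 of 4 for FN1, 2 of 8 for POSTN and 1 of 11 for LUM. Without Creole TN replicate 2 the count was 12, none of them FN1, and the median was 0.16. The median difference was 0.30 in Creole, 0.17 in F1 and 0.27 in LW, and without this pig the Creole median was 0.08. The other medians moved too, in LW to 0.08 with slide as a block and to 0.12 without LW TN replicate 4, and in F1 to 0.09 without F1 TN replicate 1.

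DCN was higher at HS in each breed on its brightest probe, A_72_P596994, at 16.76 ± 0.39 (SD, n = 11) for TN and 17.10 ± 0.24 (SD, n = 15) for HS, a difference of 0.35 ± 0.10 (SE). It was 0.26, and 0.17 in Creole, without Creole TN replicate 2. LUM gave 0.24 ± 0.12 on its brightest probe, with 0.01 in F1, 0.35 in Creole and 0.37 in LW, and 10 of 15 HS pigs lay above the TN mean of their breed. This LUM probe gave 0.16, and only 0.07 in Creole, without Creole TN replicate 2. FN1, fibronectin, is a glycoprotein that links collagens to integrins. On its brightest probe, A_72_P340983, the Creole pigs read 14.48, 13.31 and 14.31 at TN and 14.70, 14.57, 14.49, 14.41 and 15.19 at HS. The F1 pigs read 13.95, 14.51, 14.39 and 14.24 at TN and 14.41, 14.42, 14.81, 14.30 and 14.26 at HS. The LW pigs read 14.61, 13.98, 14.85 and 14.37 at TN and 14.76, 14.85, 15.11, 14.91 and 14.52 at HS. The ranges overlapped in every breed, with the low Creole TN pig the farthest out. FN1 was at 14.27 ± 0.41 for TN and 14.65 ± 0.29 for HS, and 14 of 15 HS pigs lay above the TN mean of their breed. The difference was 0.38 ± 0.12 with all pigs and 0.27 without Creole TN replicate 2, and in Creole 0.64 and 0.28.

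POSTN, periostin, a matricellular protein that takes part in collagen assembly, gave 0.37 ± 0.16 on its brightest probe and 0.35 to 0.60 over its 8 probes, all of one sign in the 3 breeds. The 2 POSTN probes with the largest difference, at 0.60 each, start at bases 2717 and 2727 of the transcript. The 8 probes gave 0.25 to 0.50 without Creole TN replicate 2, and the brightest 0.06 in Creole against 0.46 with it. On the brightest probe the TN pigs ran from 14.14 over a median of 15.10 to 15.80 and the HS pigs from 14.61 over 15.37 to 16.08. The temperatures overlapped widely, 2 HS pigs lying above all TN pigs and 13 of 15 above the TN mean of their breed.

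FBN1, fibrillin-1, the main protein of microfibrils, differed by 0.11 to 0.19 over its 3 probes, and its brightest ran from 8.21 to 9.66 at TN and from 8.69 to 10.13 at HS. The 3 FBN1 probes gave 0.02 to 0.09 without Creole TN replicate 2, and in Creole they turned from 0.02 to 0.18 into -0.34 to -0.16. For MMP2, a gelatinase, the 3 probes gave 0.02 to 0.13, and for TIMP1, an inhibitor of metalloproteinases, the 4 probes gave 0.17 to 0.20. Leaving out Creole TN replicate 2 gave -0.06 to 0.06 for the MMP2 probes and 0.14 to 0.18 for the TIMP1 probes. MMP2 ranges overlapped (14.23 to 15.33 at TN, 14.61 to 15.59 at HS), and 10 of 15 HS pigs lay above the TN mean of their breed for MMP2 and 13 of 15 for TIMP1. SPARC, a collagen-binding matricellular protein, had 8 probes between -0.05 and 0.05, where all 8 were negative in F1 (-0.44 to -0.02) and positive in LW (0.10 to 0.54). THBS1, thrombospondin-1, which can activate latent TGF-beta, was the only gene with a median below 0, with 7 of 8 probes at -0.21 to -0.02 and 1 at 0.03. Leaving out 1 pig at a time moved its brightest probe between -0.21 and -0.04. This probe differed by -0.39 in F1, 0.05 in Creole and 0.03 in LW. Of the 10 genes, CILP had the largest HS minus TN, and SPARC and THBS1 lay nearest to or below 0.

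**Figure D2:**
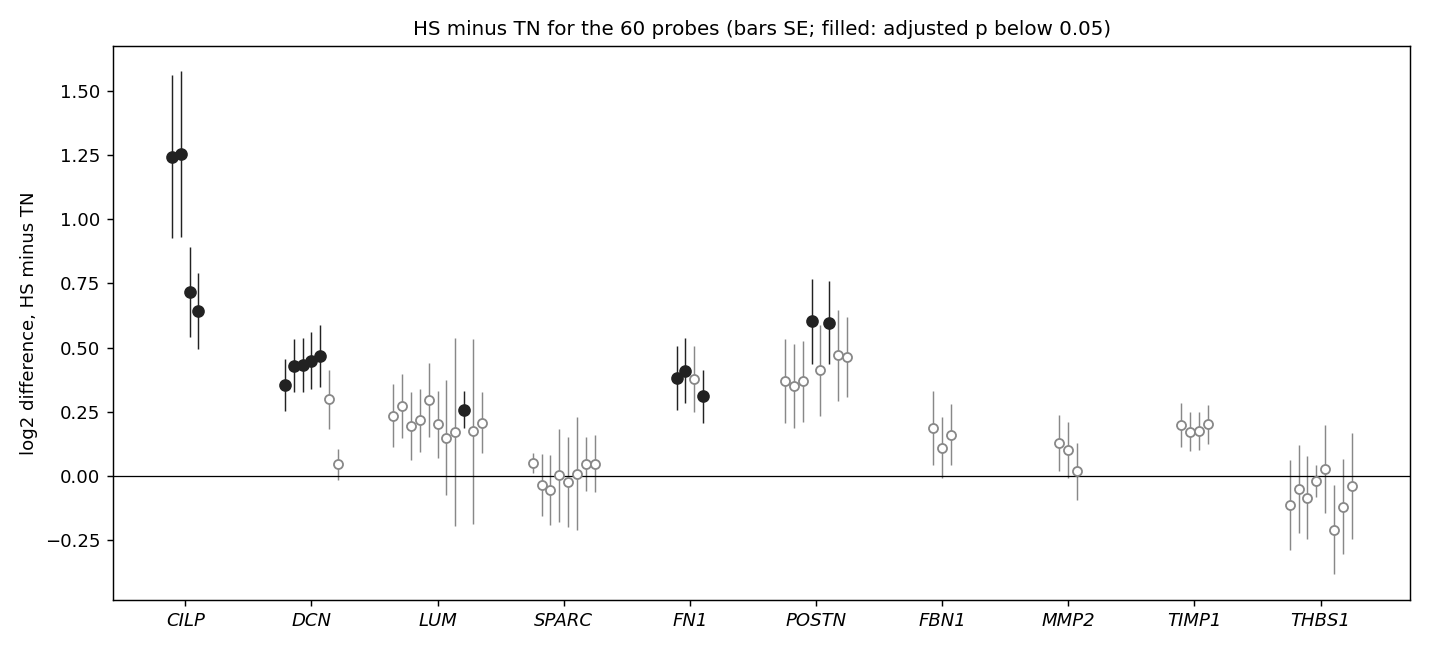
HS minus TN on the log2 scale (vertical axis) for each of the 60 probes by gene, with SE; filled points had an adjusted p below the threshold in the fit over all probes, which is a description for these genes. CILP probes lie at 0.64 to 1.25, the called DCN, FN1 and POSTN probes at 0.31 to 0.60, and SPARC and THBS1 lie around or below 0.

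Some markers of cell types were also called between temperatures, where 4.88% of all tested genes with a symbol were higher at HS and 7.68% lower. The fibroblast score was -0.16 ± 0.23 (SD, range -0.61 to 0.22) at TN and 0.12 ± 0.21 (range -0.17 to 0.54) at HS, and 6 of its 13 measured markers were called higher at HS and none lower. Schwann cell and nerve markers had 3 of 9 called higher and none lower, with a score difference of 0.39. Red blood cell markers had 2 of 6 called lower, HBB and EPB42, and 1 higher, with a score of 0.13 ± 0.14 at TN and -0.10 ± 0.20 at HS. Adipocyte markers had 2 of 10 called higher, ADIPOQ and RBP4, and 1 lower, CIDEA, with a score difference of 0.01. Endothelial and smooth muscle lists had 1 of 9 called lower each and macrophage markers none of 9. The keratinocyte score differed by 0.82 and the skeletal muscle score by 0.48, with none of 4 and none of 12 markers called, and their scores ranged widely between single pigs, from -1.69 to 3.64 and from -2.12 to 2.62. For cartilage and tendon, where CILP was first known, 6 of 13 markers were measured and none was called (score difference 0.34), while SOX9, MATN1, MATN3 and HAPLN1 were too dim to be tested. The part of any of these lists in the CILP, DCN, FN1 and POSTN differences was not tested.

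The comparison of the parent breeds asks which matrix genes differ between a commercial and a local breed, whatever the temperature. Of the 60 probes, 15 were higher in LW and 3 lower, where the fit called 14.3% of all tested probes, 6.89% as higher and 7.42% as lower. The 15 belonged to DCN (6 of 7), THBS1 (6 of 8), TIMP1 (2 of 4) and FBN1 (1 of 3), and the 3 lower ones were all LUM. None of the CILP, SPARC, FN1, POSTN or MMP2 probes was called. The median of LW minus Creole over the 60 probes was 0.25 on the log2 scale, against 0.0025 over all probes. The count of 15 was not stable: it was 8 without Creole TN replicate 2, and 7 to 9 when Creole HS replicate 3, LW HS replicate 3, LW HS replicate 2 or LW TN replicate 1 was left out.

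**Figure D3:**
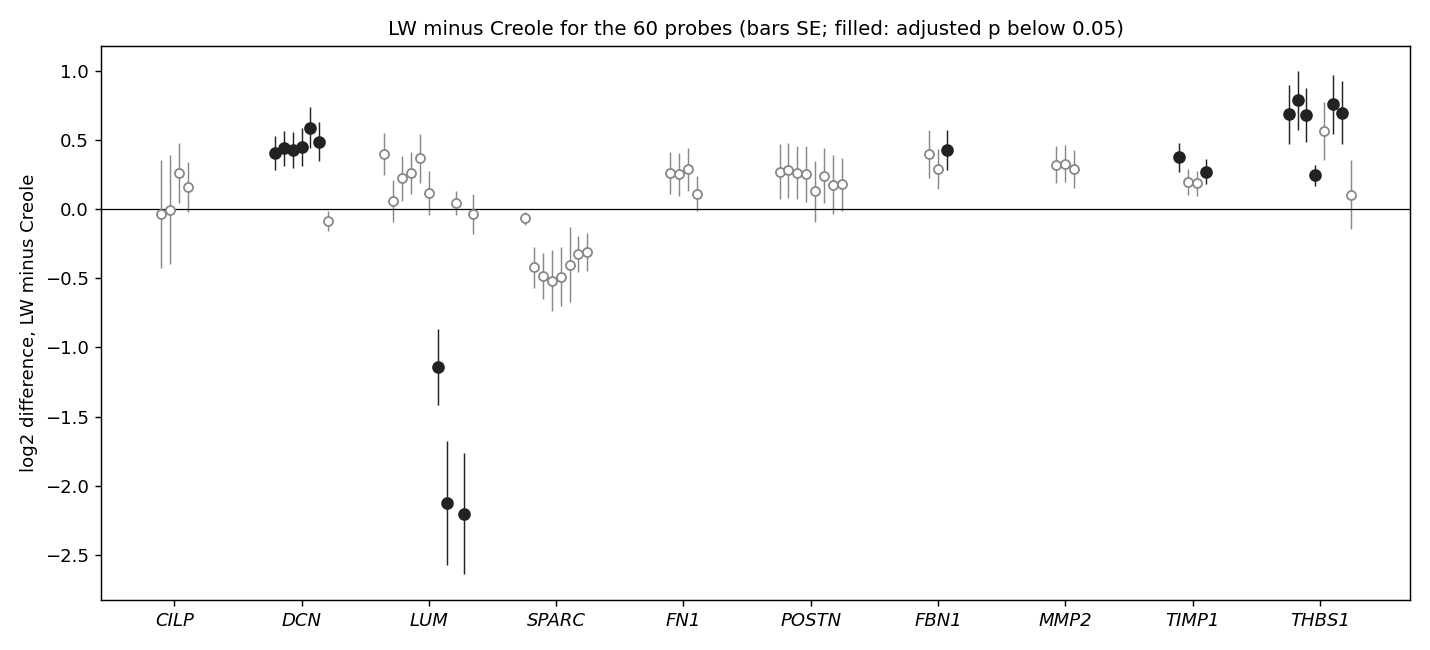
LW minus Creole on the log2 scale (vertical axis) for each of the 60 probes by gene, with SE; filled points had an adjusted p below the threshold over all tested probes. All 8 THBS1 probes and 6 of 7 DCN probes lie above 0, all 8 SPARC probes below 0 without being called, and 3 of 11 LUM probes at -1.14 to -2.20, apart from the other 8.

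DCN was higher in LW at both temperatures. On its brightest probe the TN levels were 16.89, 15.79 and 16.75 in Creole and 17.23, 16.83, 17.14 and 16.84 in LW, and the HS levels 16.99, 16.95, 16.81, 16.87 and 17.33 in Creole and 17.24, 17.44, 17.56, 17.39 and 16.92 in LW. The LW pigs sat higher as a group with overlap, 3 of 9 lying above all Creole pigs. LW minus Creole was 0.41 ± 0.12 (SE; adjusted p = 0.0279), and over the 6 probes called 0.41 to 0.59, at most a 1.502-fold difference. The remaining DCN probe, O10060, was well above background on only 14 arrays and gave -0.09. Without Creole TN replicate 2, 3 of the 7 probes stayed called and the brightest gave 0.28 (adjusted p = 0.0580); it also missed the threshold without LW HS replicate 2 or 3, LW TN replicate 1 or Creole HS replicate 3 (0.37 to 0.39, adjusted p 0.0504 to 0.0551). With slide as a block it was 0.40 (adjusted p = 0.0510), and A_72_P180841 (0.0530) and A_72_P178111 (0.0539) lost their calls too. A_72_P180841 also lost its call with the processed intensity (0.0515). Both A_72_P180841 and A_72_P178111 lost theirs in 5 of the 26 fits that left out 1 pig (adjusted p up to 0.0598). Within the 4 slides that held both breeds LW was higher on 3, with a range of -0.34 to 1.61. These slide means were not adjusted for temperature. The slide at -0.34 set 2 LW TN pigs against 1 Creole HS pig. On the slide at 1.61 the only Creole pig was Creole TN replicate 2. Without temperature as a covariate none of the 6 DCN probes kept its call (adjusted p 0.0528 to 0.127).

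THBS1 showed the largest difference in favour of LW. The brightest probe read 10.15, 10.16 and 10.12 in Creole TN and 10.99, 11.12, 11.28 and 10.01 in LW TN pigs, and 9.79, 10.57, 10.06, 9.62 and 10.92 in Creole HS and 10.85, 11.31, 10.94, 10.34 and 10.95 in LW HS pigs. The ranges overlapped at both temperatures: 3 of 4 LW TN pigs lay above all Creole TN pigs and the remaining one below them, and 3 of 5 LW HS pigs lay above all Creole HS pigs. LW minus Creole was 0.68 ± 0.22 (adjusted p = 0.0337) and missed the threshold when any 1 of 10 of the 26 pigs was left out (0.61 to 0.67, adjusted p up to 0.0708). Within the 4 slides with both breeds LW was higher on 3, with a range of -0.28 to 1.103. These slide means were not adjusted for temperature either. The probe A_72_P668823 gave 0.78 ± 0.21 (adjusted p = 0.0147) and kept its call whichever pig was left out. Only 1 THBS1 probe lay near 0 (0.10 ± 0.25), and it is the one named by its description alone. Its first 30 bases are shown because they hold GTAAGT, in capitals, the letters with which an intron can begin, found on the printed strand in 0.877% of all probes; a probe starting at base 419 that was called (0.24) is shown for comparison. The call of this last probe was lost in 6 of the 26 fits that left out 1 pig (adjusted p up to 0.0656) and with the processed intensity (0.0630), and that of A_72_P624042 in 13 (up to 0.0824) and with no filter (0.0504).
THBS1 A_72_P373148, bases 1 to 30: agtgtcgttgtcagGTAAGTggtctctaca
THBS1 A_72_P151688: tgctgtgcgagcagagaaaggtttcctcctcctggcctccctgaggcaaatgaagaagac

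On the brightest TIMP1 probe, A_72_P672674, the TN levels were 12.70, 12.56 and 12.91 in Creole and 13.38, 12.94, 12.86 and 13.09 in LW pigs. The HS levels were 13.08, 13.25, 12.66, 12.76 and 12.79 in Creole and 13.09, 13.52, 13.64, 13.44 and 12.82 in LW pigs. The ranges overlapped at both temperatures, with the 4 highest levels all in LW. TIMP1 was higher in LW by 0.37 ± 0.11 on its brightest probe (adjusted p = 0.0195), at 12.84 ± 0.23 (SD, n = 8) in Creole and 13.20 ± 0.30 (SD, n = 9) in LW, with 4 of 9 LW pigs above all Creole pigs. This call held whichever pig was left out (0.35, adjusted p = 0.0423, without Creole TN replicate 2). LW was higher on all 4 slides with both breeds, in slide means not adjusted for temperature. The processed intensity of the scanner gave 0.30 (adjusted p = 0.0536). The other TIMP1 probe called, A_72_P223927 (0.27, adjusted p = 0.0494), lost its call in 19 of the 26 fits that left out 1 pig (adjusted p up to 0.124) and with normexp, no filter, slide as a block, array weights or no covariate. FBN1 had 1 probe at 0.42 with adjusted p = 0.0497, which 19 of the 26 leave-one-out fits lost, as did normexp, no filter, slide as a block, array weights and no covariate (adjusted p 0.0521 to 0.0773). SPARC went the other way: LW minus Creole lay between -0.52 and -0.07 on its 8 probes, and none passed (lowest adjusted p = 0.05003). With the processed intensity of the scanner 3 of the 8 passed, and with a filter on all arrays, slide as a block or array weights 2 passed. FN1, POSTN and MMP2 had positive differences on every probe, from 0.11 to 0.33, none of which passed. Without Creole TN replicate 2 FN1 and POSTN lay between -0.08 and 0.17. The brightest MMP2 probe passed without LW HS replicate 5 or Creole HS replicate 5 (adjusted p = 0.0343 at most).

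LUM split by probe. Of its 11 probes, 8 gave LW minus Creole between -0.03 and 0.40, none called, whereas 3 overlapping probes were lower in LW: A_72_P583531, A_72_P665036 and A_72_P624127, at -1.14, -2.12 and -2.20 on the log2 scale (adjusted p = 0.00748, 0.00323 and 0.00223). The last is a 4.60-fold lower level, and the 3 calls held with slide as a block, under each scaling and filter and whichever pig was left out. The 3 start at bases 1460 and 1465 of the transcript in the array annotation. Their neighbours on either side, A_72_P573664 at base 1440 and A_72_P769870 at base 1529, gave 0.06 (adjusted p = 0.846) and 0.40 (adjusted p = 0.0752; it passed at 0.0413 and 0.0423 without Creole HS replicate 2 or LW TN replicate 4). The neighbour A_72_P573664 shares its last 40 bases with the start of A_72_P583531 and its last 35 with the starts of the other 2. The last 30 bases of the 4 probes are printed to show where they part, with capitals for the stretch that lies beyond A_72_P573664; A_72_P665036 and A_72_P624127 differ at 3 of 60 positions when aligned without a shift.
LUM A_72_P573664, bases 31 to 60: acaaatacacagacacacacacacaccaaa
LUM A_72_P583531, bases 31 to 60: acacaccaaaCAATGCTTTATTTGTAAATT
LUM A_72_P665036, bases 31 to 60: ccaaaCAATGCTTTATTTGTAAATTTATGC
LUM A_72_P624127, bases 31 to 60: ccaaaCAATGCTTTATTTGTAATTTATTGC

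On A_72_P665036 and A_72_P624127 the pigs fell into separate clusters. On A_72_P665036 the Creole TN pigs read 11.45, 11.39 and 12.05 and the Creole HS pigs 12.17, 11.70, 8.64, 11.86 and 10.77. The F1 pigs read 8.74, 9.04, 11.30 and 8.69 at TN and 8.79, 10.78, 11.28, 11.09 and 10.92 at HS. The LW pigs read 9.63, 8.999, 9.13 and 9.01 at TN and 9.005, 9.18, 9.56, 8.85 and 8.68 at HS. No pig lay between 9.63 and 10.77, a gap of 1.14 where the next largest gap was 0.38. All 9 LW pigs, 4 of 9 F1 pigs and 1 of 8 Creole pigs lay below the gap, and the same 14 pigs lay below the gap of 1.24 on A_72_P624127. The Creole pig below it, Creole HS replicate 3, read 12.37 on the neighbouring A_72_P573664 where the other Creole HS pigs read 12.37 to 13.09. On that neighbour the largest gap between ranked pigs was 0.29.

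**Figure D4:**
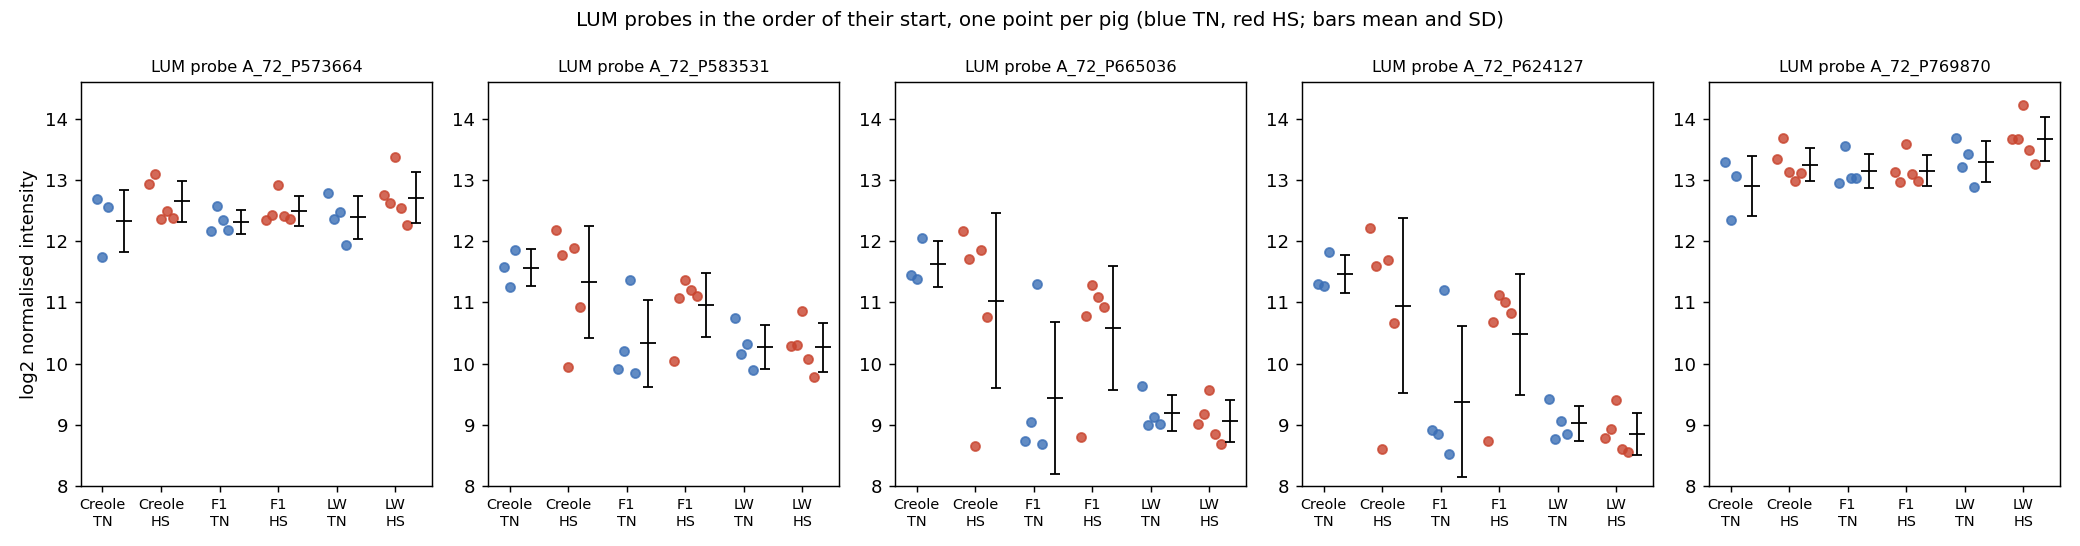
Log2 normalised intensity (vertical axes, one common range) of 5 LUM probes in the order of their start in the transcript, in the 6 groups, 1 point per pig, with group mean and SD. The outer 2 probes show overlapping groups, while on A_72_P665036 and A_72_P624127 all 9 LW pigs lie at 9.63 or lower and 7 of 8 Creole pigs at 10.66 or higher.

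In the F1 cross, these probes gave HS minus TN of 1.13 (A_72_P665036) and 1.102 (A_72_P624127), where 3 of 4 F1 TN pigs but 1 of 5 F1 HS pigs were below the gap. A_72_P665036 gave -0.60 in Creole and -0.14 in LW, and A_72_P624127 gave -0.51 and -0.17. The test of a breed by temperature interaction did not call them (adjusted p = 0.897 for both). It called none of the 60 member probes, where 0.00224% of all tested probes were called, and 1 of the 60 had an unadjusted p under 0.05, against 2336 of all 44703.

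The cross asks whether F1 pigs lie midway between their parent breeds. F1 minus the mid-parent level was above 0 for 4 of the 60 probes and below 0 for 56, where 48.9% of all tested probes were above 0. Over the 60 the median was -0.14 and the range -0.34 to 0.15. Probes of 1 gene share its transcript, so these are not 60 separate measurements. Of the brightest probes, POSTN at -0.32 and THBS1 at -0.29 lay farthest below the mid-parent level. None of the 60 was called (lowest adjusted p = 0.511), where 0.00671% of all tested probes were. An unadjusted p under 0.05 was found for 3 of the 60 and for 3885 of the 44703 tested probes. In the test of any difference between the 3 breeds, 10 member probes were called, where 11.3% of all tested probes were: 4 for THBS1, 3 for LUM, 2 for DCN and 1 for TIMP1. The 3 LUM probes had adjusted p = 0.00711 to 0.0205.

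Beside the breed differences of DCN, THBS1 and TIMP1, markers of cartilage and tendon differed in the same direction. Their score was -0.51 (range -1.20 to 0.44) in Creole and 0.64 (range -0.19 to 1.502) in LW pigs, and 5 of 6 measured markers were called higher in LW. The fibroblast score was -0.10 (range -0.61 to 0.29) in Creole and 0.16 (range -0.15 to 0.54) in LW, with 4 of 13 markers called higher. Creole TN replicate 2 had the lowest score on both lists. In other lists, Schwann cell markers had 2 of 9 called higher and endothelial markers 1 of 9. Of all tested genes with a symbol, 6.66% were called higher in LW and 8.64% lower, and no list was tested as a set. Adipocyte markers had 2 of 10 called lower, LEP and CIDEA, with a score of -0.08 (range -0.20 to 0.04) in LW and 0.10 (range 0.0066 to 0.33) in Creole. For skeletal muscle, LW minus Creole of the score was -0.84, with none of 12 markers called, and for keratinocytes 0.76, with none of 4. The part of any of these in the differences of the members was not tested.

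Correlations within groups show which members varied together among pigs of 1 breed and temperature. After subtracting the 6 group means from the brightest probes, 42 of the 45 pairs of genes had a positive Pearson r over the 26 pigs, and 17 pairs passed after adjustment over the 45 (two-sided permutation of pigs within groups, 100000 resamples). The median r was 0.44 and 93.3% of the pairs were positive, where the 116 other matrix genes tested gave a median of 0.10 with 62.3% positive, and 10089 genes with a symbol 0.0028 with 50.4% positive. These shares are a description, since pairs share pigs and genes. The closest pair was DCN and FN1 with r = 0.85 (adjusted p = 0.00540) and Spearman rho = 0.82, and r was 0.79 without the 2 pigs farthest from the median of DCN. DCN also followed MMP2 (r = 0.75, rho = 0.74, adjusted p = 0.0072) and its neighbour LUM (r = 0.70, rho = 0.69, adjusted p = 0.00977). POSTN followed LUM (r = 0.70, rho = 0.68, adjusted p = 0.0072) and MMP2 (r = 0.69, rho = 0.68, adjusted p = 0.00864). DCN and MMP2 each entered 6 of the 17 pairs.

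CILP, the member with the largest difference at HS, was among the least coupled: only its pair with POSTN passed (r = 0.64, adjusted p = 0.0350), where rho was 0.49 (adjusted p = 0.0809) and r without the 2 farthest pigs was 0.55. Its r with the other 8 genes lay between 0.20 and 0.48. SPARC and THBS1 also entered 1 pair each, SPARC with DCN (r = 0.41, rho = 0.45, adjusted p = 0.0350) and THBS1 with MMP2 (r = 0.46, rho = 0.53, adjusted p = 0.0315). The SPARC probe spanned only 18.31 to 18.76 over the 26 pigs, which limits what its r values show. Its r with FN1 was 0.39, but -0.09 with the processed intensity of the scanner. SPARC with DCN did not pass with slide means also subtracted (adjusted p = 0.0687). It passed in 16 of the 26 runs that left out 1 pig. Without Creole TN replicate 2, 10 pairs passed, among them DCN with FN1 (r = 0.76) and DCN with MMP2 (r = 0.71), but not CILP with POSTN (r = 0.59, adjusted p = 0.105) or SPARC with DCN (r = 0.36, adjusted p = 0.104). With the processed intensity of the scanner in place of quantile-normalised levels 8 pairs passed. Of the pairs named here, DCN with LUM (r = 0.60, adjusted p = 0.0589), CILP with POSTN (adjusted p = 0.0542), SPARC with DCN (0.0623) and THBS1 with MMP2 (0.0806) did not.

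**Figure D5:**
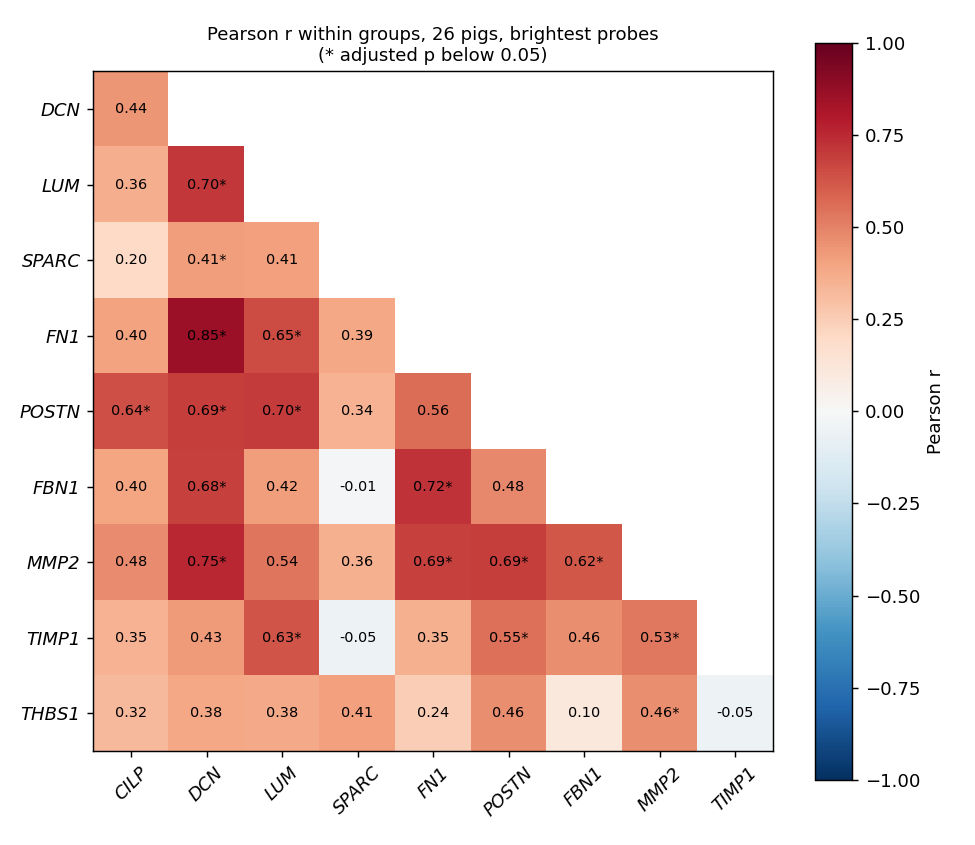
Pearson r between the brightest probes of the 10 genes over 26 pigs after subtracting the 6 group means, with stars on the 17 pairs that passed. DCN with FN1 is the darkest cell at 0.85, and the CILP column lies between 0.20 and 0.64.

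The rest of the matrix gene list held 134 genes, 116 of which were tested by their brightest probe. At HS 14 were higher and 3 lower, 12.1% and 2.59% of the list, where 4.88% and 7.68% of the 10110 tested genes with a symbol were higher and lower. The median HS minus TN of the list was 0.09 on the log2 scale, against -0.0048 for all genes. The list was written with earlier results on this contrast known, so its median, shares and calls at HS are a description. The small leucine-rich proteoglycans had 2 of 8 higher and all 8 positive, matricellular and adhesive glycoproteins 4 of 26 higher, elastic fibre genes 2 of 15 and matrix receptors 2 of 15, with none lower in these lists. Crosslinking and processing genes had 3 of 13 higher and 1 lower, and TGF-beta genes 1 of 11 higher. Proteases and inhibitors had none of 19 higher and 2 lower, and none of the 9 large proteoglycan and basement membrane genes was called. The count of 14 was 7 without Creole TN replicate 2 or without LW TN replicate 2, and 9 without F1 TN replicate 1 or 3.

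Among those higher at HS with 1 sign in all breeds, the 3 with the largest differences were PCOLCE2, an enhancer of procollagen processing (0.56 ± 0.15, adjusted p = 0.0177), SRPX (0.55 ± 0.15, adjusted p = 0.0167) and P4HA2, a subunit of the prolyl hydroxylase of collagen (0.545 ± 0.12, adjusted p = 0.00424). The 3 that fell were ADAMTS9, a protease that cleaves proteoglycans (-0.43 ± 0.10, adjusted p = 0.00803), the crosslinking enzyme LOXL2 (-0.34 ± 0.11, adjusted p = 0.0496) and ADAMTS2, which trims procollagen (-0.25 ± 0.08, adjusted p = 0.0408). The calls of LOXL2 and ADAMTS2 were lost with no filter on dim probes (adjusted p = 0.0651 and 0.0553), that of LOXL2 also with normexp (0.0533), and those of SRPX (0.0533), LOXL2 (0.0672) and ADAMTS2 (0.0731) without breed as a covariate. LOXL2 was also lost in 20 of the 26 fits that left out 1 pig (adjusted p up to 0.0986) and ADAMTS2 in 14 (up to 0.0775), among them the fit without Creole TN replicate 2 (0.0532). Close relatives of the members did not pass: BGN, the relative of DCN, was at 0.22 (it passed at 0.0439 with slide as a block and at 0.0432 without F1 TN replicate 2), THBS2 at 0.21, TIMP2 at 0.20 (it passed at 0.0487 without LW HS replicate 5), FBN2 at -0.02 and TIMP3 at -0.17 (-0.29, adjusted p = 0.0298, with the processed intensity). CILP2 was on the array but too dim to be tested.

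In LW minus Creole 24 genes of the list were higher and 1 lower, 20.7% and 0.862%, where 6.66% and 8.64% of all tested genes were. The 3 largest were COMP, a cartilage and tendon glycoprotein of the thrombospondin family (1.56 ± 0.24, adjusted p = 0.000299), ACAN, aggrecan, the main cartilage proteoglycan (1.105 ± 0.20, adjusted p = 0.00121), and TNC, tenascin-C (0.96 ± 0.15, adjusted p = 0.000383). CD36, a receptor for thrombospondin-1 and for fatty acids, was the 1 lower gene (-0.23 ± 0.07, adjusted p = 0.0340), and its call was lost with slide as a block (-0.19, adjusted p = 0.0711) and without Creole HS replicate 1 or 3, LW HS replicate 2, 3 or 4 or LW TN replicate 1 (adjusted p 0.0579 to 0.0778). COMP and ACAN are also among the cartilage and tendon markers above. The count of 24 was not repeated without Creole TN replicate 2 or under the other alternatives.

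Over 10100 other genes with a symbol, those whose brightest probe followed CILP most closely within groups over the 26 pigs were FDXR (r = 0.79), FOXH1 (0.78), TBX21 (0.77), MBNL3 (0.74) and IGFBP5 (0.73), a binding protein of insulin-like growth factors. These r values were 0.62 to 0.72 without the 2 pigs farthest from the CILP median and are the highest of a large number, so they are given as a description. Their own HS minus TN was -0.12 for FDXR and between 0.03 and 0.20 for the other 4, none called.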

How the data were processed

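Total RNA of SCAT from 26 pigs was labelled with Cy3 and hybridised to 1 array each, on 5 slides. The authors deposited scanner files with spot intensity and background intensity, flags for spots well above background, and a matrix of log2 quantile-normalised values. The scanner files come from Agilent Feature Extraction 10.10.1.1, per the labels, and limma is named there without a version. From the deposited median intensity, non-control spots were quantile normalised and log2 transformed; this followed the deposited log2 matrix with a lowest r of 0.9999968 over the arrays. Levels are relative, so no probe's level is set against another's, and the number of arrays limits the precision.

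Probes that the scanner flagged above background on 8 or more arrays were tested with limma 3.58.1 in R 4.3.3 (lmFit, eBayes with intensity trend), with breed and temperature in 1 model or 6 group means for interaction, and Benjamini-Hochberg adjustment over all 44703 probes at 0.05. Pen, slaughter day and parents, random effects in the study's model, are not in the labels and were not fitted. A gene other than a member was represented by its brightest probe. Every member is described by its brightest probe and its CILP probes singly, other genes by list, with the 3 largest called differences in each direction (for HS minus TN of 1 sign in all breeds) and the closest relatives named. The members and lists were chosen with earlier results of these data known. The fits were tested on simulated data. The 60 member probes have 55 distinct sequences, read from the scanner files; gene names come from these files, their accessions and the RefSeq and Ensembl name tables. Alternatives were other scalings, background corrections, filters, slide as a block, array weights and leaving out each pig.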

Additional observations from a re-analysis of the deposited data

Results flagged for a closer look

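Levels of the members' brightest probes, of the other CILP sequences and of the 3 LUM probes with a breed difference were searched for a pig far from the rest of its group, in groups of 4 or 5. Of 75 groups of values, 10 held such a pig, where chance gives about 1 in 20. On the brightest LUM probe, F1 HS replicate 3 stood above its group at 13.59 (others 12.96 to 13.13) and F1 TN replicate 2 at 13.56 (others 12.95 to 13.03). F1 HS replicate 3 also stood high for FN1 at 14.81 (others 14.26 to 14.42), and F1 TN replicate 2 for FBN1 at 9.47 (others 8.96 to 9.03). For POSTN, LW TN replicate 1 read 15.80 (others 15.10 to 15.19). On the 3 LUM probes, F1 HS replicate 1 was the lowest of its group at 10.04 on A_72_P583531, 8.79 on A_72_P665036 and 8.73 on A_72_P624127, and F1 TN replicate 3 was the highest at 11.30 on A_72_P665036 and 11.21 on A_72_P624127. These last 5 share overlapping probes and are 1 pattern.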

How the results depend on the processing

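No paired analysis was possible because the replicate numbers only follow the order of the samples and pair no animals. The counts that moved by over 1.5 times were these. With the processed intensity of the scanner, other matrix genes higher at HS numbered 8 against 14 and lower 5 against 3, member probes lower in LW 6 against 3, and correlated pairs 8 against 17. Without the other factor as a covariate, the other matrix genes numbered 6 higher and 1 lower, member probes higher in LW 7 against 15, and those differing between any breeds 5 against 10. With no filter 1 other matrix gene was lower. Member probes lower in LW numbered 5 with a filter on all arrays, with slide as a fixed block and with array weights, and array weights gave 16 probes differing between any breeds. Over the fits that left out 1 pig, other matrix genes numbered 7 to 20 higher and 1 to 4 lower at HS, member probes 7 to 18 higher and 3 to 5 lower in LW and 3 to 16 between any breeds, and correlated pairs 10 to 22. With the processed intensity MMP2 HS minus TN was -0.022 against 0.13, LUM 0.13 against 0.24, POSTN 0.24 against 0.37, TIMP1 0.12 against 0.20, SPARC 0.01 against 0.05 and FBN2 0.064 against -0.02. Leaving out 1 pig gave -0.26 to 0.26 for LW minus Creole of CILP and -0.047 to 0.014 for HS minus TN of FBN2. The cause of these shifts was not tested. The difference within each breed under the alternatives was added after seeing the data. The deposited matrix, the normexp correction, the fit without intensity trend and slide as a random block moved no count past 1.5 times.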
